A study of Mus musculus with 12 samples.

Results

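The 10 genes described are stress-response genes known as targets of the transcription factor p53: Mdm2, Ccng1, Zmat3, Cdkn1a, Gadd45a, Plk2, Sesn2, Trp53inp1, Bbc3 and Phlda3. They were found by symbol among probe sets annotated to exactly 1 gene, and they make up 10 of 18820 genes so measured. Each had 1 such probe set, and all 10 passed the filter on dim signals that left 12961 genes for testing. For Cdkn1a 9 of 12 arrays, and for Phlda3 11 of 12, lay above the 40th percentile of the array; for the other 8 genes all 12 arrays did.

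The cells were primary cultures of B lymphomas from mice carrying l-MYC, a MYC transgene under immunoglobulin lambda control, and B1-8f, an immunoglobulin heavy chain allele that Cre recombinase can delete (strain C57BL/6J x BALB/c). All cultures received TAT-Cre, a cell-permeable Cre, so every group comes from Cre-treated tumours or from mixtures with their cells, and all groups carry the transgene. The 3 tumours 2567, 2646 and 2676 each gave 1 array in each of 4 groups, sorted after 4 days of mixed culture. The groups were untreated cells that kept the B cell receptor (BCR-positive), untreated cells that had lost it (BCR-negative), BCR-negative cells grown with CHIR99021, which blocks the kinase GSK3, and untreated BCR-independent cells. BCR-independent cells are BCR-negative clones obtained by long culture, 1 clone per tumour (clones 8, 7 and 1), grown with BCR-positive cells of their own tumour. By the series' design text, BCR-negative cells were being lost from the mixed cultures at that time and BCR-independent clones were not. The age of the mice, the dose of CHIR99021 and the Trp53 genotype of the tumours were not stated in the labels.

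p53 is held low in unstressed cells by the ubiquitin ligase encoded by Mdm2, itself a p53 target. Stress releases p53, which then switches on genes for cell cycle arrest, repair, metabolic adaptation and death, and loss of this response is a common event in MYC-driven B cell lymphoma. Several of these genes also answer to other stress factors: Trp53inp1, Gadd45a and Bbc3 to FOXO proteins, and Sesn2 to ATF4.

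Values are log2 signals of Affymetrix Mouse Gene 1.1 ST arrays, so a difference of 1 is a 2-fold difference, and array medians lay between 3.32 and 3.44. A gene was called changed at a limma adjusted p under 0.05, the p being adjusted by Benjamini-Hochberg over all 12961 genes. Ighv1-72, the variable segment of the deletable heavy chain, read 9.62 ± 0.30 in BCR-positive, 6.44 ± 0.57 in BCR-negative, 5.77 ± 0.73 in treated and 4.04 ± 0.28 in BCR-independent cells (SD, n = 3), in the direction of the sort labels. Its probe sets may share signal with near-identical segments. Trp53 itself was not analysed here, since no probe set was annotated to it alone. Of 7 B cell marker genes with a probe set, 6 lay above the 40th percentile on every array. The exception was Ms4a1 (2.55 to 3.19). Among the 6, Blk varied from 3.28, near the array medians, to 7.01, and Ebf1 from 6.83 to 9.34. Mean levels over T cell, NK cell, myeloid, erythroid and stromal marker lists lay between 2.83 and 3.54 on every array, and 4.09 to 4.77 for plasma cell markers. Single markers stood above those means: Itgam of the myeloid list read 4.08 to 5.97, Col1a1 of the stromal list 3.99 to 4.38, and Sdc1 and Irf4 of the plasma cell list 5.32 to 6.25 and 6.07 to 8.91. In these bulk samples, fewer cells expressing a gene and less RNA of it per cell cannot be told apart.

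The promoters of 8 of the 10 genes were available from RefSeq (build GRCm38.p6), in 11 windows from 250 bases before to 50 bases after an annotated start. Trp53inp1 and Zmat3 were not in that table. A p53 half-site, the 10-base unit of the p53 response element, was found on either strand in 4 of the 11 windows, 1 each of Cdkn1a, Ccng1, Mdm2 and Gadd45a, against 8.36% of 32851 such windows of all genes. The sequences of the 250 bases before the start are shown for these 4 windows because they hold the half-site. They are written 5′ to 3′ on the strand of the gene, with motif matches in capitals.
Cdkn1a: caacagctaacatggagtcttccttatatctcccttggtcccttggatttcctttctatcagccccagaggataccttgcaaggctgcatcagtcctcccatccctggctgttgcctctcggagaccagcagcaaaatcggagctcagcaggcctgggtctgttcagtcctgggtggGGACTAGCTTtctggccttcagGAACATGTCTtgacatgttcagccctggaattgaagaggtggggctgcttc
Ccng1: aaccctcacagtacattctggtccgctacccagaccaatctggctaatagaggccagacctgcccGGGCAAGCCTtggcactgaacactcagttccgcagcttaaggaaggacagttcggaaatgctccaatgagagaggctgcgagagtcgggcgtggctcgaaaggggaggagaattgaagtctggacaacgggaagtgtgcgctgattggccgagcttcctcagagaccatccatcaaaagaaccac
Mdm2: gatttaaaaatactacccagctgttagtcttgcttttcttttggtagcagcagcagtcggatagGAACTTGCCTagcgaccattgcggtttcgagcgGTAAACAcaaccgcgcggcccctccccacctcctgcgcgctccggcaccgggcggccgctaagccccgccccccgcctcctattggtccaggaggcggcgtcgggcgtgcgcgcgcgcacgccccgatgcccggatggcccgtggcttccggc
Gadd45a: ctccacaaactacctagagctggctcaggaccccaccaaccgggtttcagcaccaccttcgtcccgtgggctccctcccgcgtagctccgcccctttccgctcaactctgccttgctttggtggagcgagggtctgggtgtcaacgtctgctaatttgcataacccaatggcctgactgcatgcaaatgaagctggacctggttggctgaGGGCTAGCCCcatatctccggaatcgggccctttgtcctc
These windows are chr17:29090729-29090978 (plus strand) for Cdkn1a, chr11:40755287-40755536 (minus strand) for Ccng1, chr10:117710759-117711008 (minus strand) for Mdm2 and chr6:67037408-67037657 (minus strand) for Gadd45a, and all end at the base before a RefSeq start. The Cdkn1a window shown holds 2 half-site matches that do not adjoin, GGACTAGCTT at positions -73 to -64 from its start and GAACATGTCT at -51 to -42. Another Cdkn1a window, chr17:29093519-29093768 (plus strand), belongs to a start further downstream and held no match. In Ccng1 the match is GGGCAAGCCT at -185 to -176, in Mdm2 it is GAACTTGCCT at -186 to -177, and in Gadd45a it is GGGCTAGCCC at -40 to -31. The second capital run in the Mdm2 window, GTAAACA at -153 to -147, is the forkhead motif TGTTTAC on the other strand. That motif was found in 2 of the 11 windows (of Mdm2 and Bbc3) and in 3.65% of all windows. The E-box CACGTG was found in 1 of the 11 (of Bbc3) and in 7.15% of all windows. The ATF4 motif TGATGCAA was found in 0 of the 11 and in 0.895% of all windows. These searches covered both strands, and a match describes the letters of the window only.

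**Figure D1:**
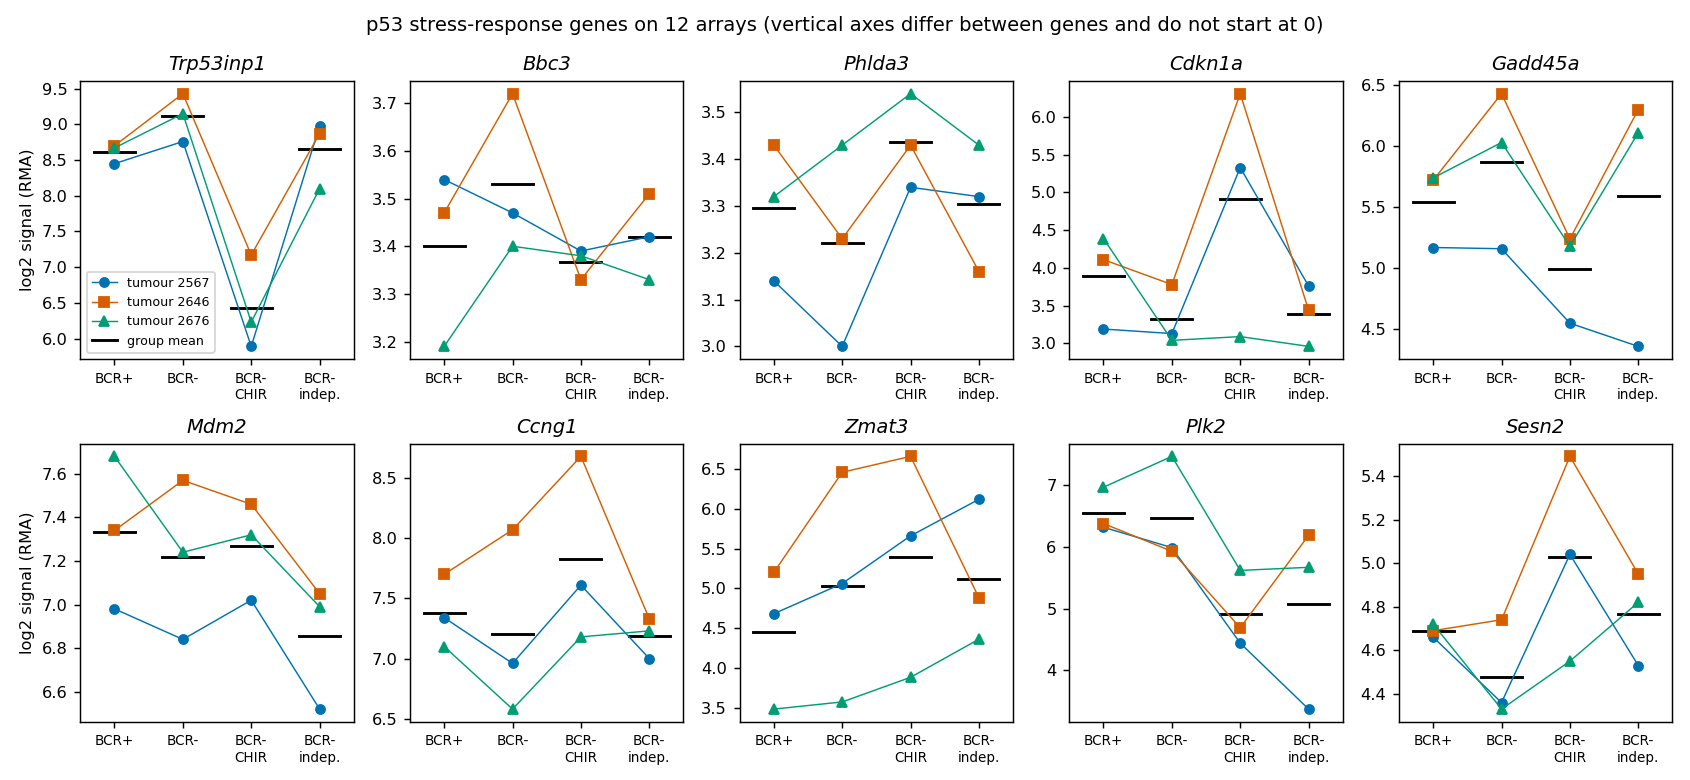
Log2 signal (RMA) of each of the 10 genes on the 12 arrays, by group on the horizontal axis, with 1 symbol and line per tumour and a black bar for each group mean (n = 3). Vertical axes differ between genes and do not start at 0. Trp53inp1 is the gene whose 3 treated arrays (5.89 to 7.17) lie below the other 9 (8.10 to 9.43), while for Zmat3 the lines of the tumours are further apart than the groups.

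Below, values in a group are given in the order of tumours 2567, 2646 and 2676. Gene positions are those of RefSeq on build GRCm38.p6. Mdm2 (chr10:117688875-117710758), the ubiquitin ligase that marks p53 for destruction, read 6.98, 7.34 and 7.68 in BCR-positive, 6.84, 7.57 and 7.24 in BCR-negative, 7.02, 7.46 and 7.32 in treated and 6.52, 7.05 and 6.99 in BCR-independent cells. Tumour 2567 was the lowest of its group in every group. The BCR-independent array was the lowest of its tumour in each of the 3 tumours, although the groups overlapped. Of the variance of Mdm2 over the 12 arrays, 53.9% lay between tumours and 34.9% between groups.

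Ccng1 (chr11:40748552-40755309), cyclin G1, a p53 target that recruits a phosphatase to Mdm2, read 7.34, 7.70 and 7.10 in BCR-positive, 6.96, 8.07 and 6.58 in BCR-negative, 7.61, 8.68 and 7.18 in treated and 7.00, 7.33 and 7.23 in BCR-independent cells. The treated array was higher than the untreated BCR-negative array in each tumour by a like amount (0.66, 0.61 and 0.60), and tumour 2646 was the highest in every group. The groups overlapped because the tumours lay further apart than that (54.8% of the variance between tumours and 23.2% between groups).

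Zmat3 (chr3:32334792-32365665), a zinc finger protein that binds RNA, read 4.68, 5.20 and 3.48 in BCR-positive, 5.06, 6.46 and 3.57 in BCR-negative, 5.66, 6.66 and 3.88 in treated and 6.12, 4.88 and 4.36 in BCR-independent cells. Tumour 2676 was the lowest in every group, at 3.48 to 4.36 against 4.68 to 6.66 for the other tumours. Between tumours lay 68.0% of its variance and between groups 11.2%, where the medians over all genes tested were 39.8% and 20.7%.

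Cdkn1a (chr17:29090979-29100722) encodes p21, the inhibitor of cyclin-dependent kinases through which p53 stops the cell cycle. It read 3.19, 4.11 and 4.39 in BCR-positive, 3.13, 3.78 and 3.04 in BCR-negative, 5.33, 6.31 and 3.09 in treated and 3.76, 3.44 and 2.96 in BCR-independent cells. The treated arrays of tumours 2567 and 2646 were the 2 highest of all 12, and that of tumour 2676 lay with the untreated BCR-negative arrays. The treated SD was therefore 1.65, against 0.40 to 0.63 in the other groups. Readings near 3 are at the 40th percentile of the arrays (3.06 to 3.16), where differences are compressed.

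Gadd45a (chr6:67035096-67037407), which acts in DNA repair and growth arrest, read 5.17, 5.72 and 5.74 in BCR-positive, 5.16, 6.43 and 6.03 in BCR-negative, 4.55, 5.24 and 5.18 in treated and 4.36, 6.30 and 6.11 in BCR-independent cells. The treated array was the lowest of its tumour in 2646 and 2676, and in 2567 the BCR-independent array was lower still. Tumour 2567 was the lowest in every group, and 59.6% of the variance lay between tumours.

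Plk2 (chr13:110395044-110400844), a polo-like kinase induced by stress, read 6.32, 6.38 and 6.97 in BCR-positive, 5.99, 5.93 and 7.47 in BCR-negative, 4.44, 4.69 and 5.62 in treated and 3.37, 6.19 and 5.67 in BCR-independent cells. All 3 treated arrays lay below all 6 untreated BCR-positive and BCR-negative arrays. The BCR-independent arrays spread more widely (SD 1.5), from the lowest of the 12 in tumour 2567 to a value among the untreated ones in 2646.

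Sesn2 (chr4:132492804-132510456), sestrin 2, which restrains the growth kinase complex mTORC1, read 4.66, 4.69 and 4.72 in BCR-positive, 4.36, 4.74 and 4.33 in BCR-negative, 5.04, 5.49 and 4.55 in treated and 4.53, 4.95 and 4.82 in BCR-independent cells. The treated arrays of tumours 2567 and 2646 were the 2 highest of the 12, as for Cdkn1a. The treated array of tumour 2676 lay below the BCR-positive array of the same tumour.

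Trp53inp1 (chr4:11156441-11174379), a stress-induced nuclear and autophagy protein that promotes arrest and death, read 8.45, 8.70 and 8.67 in BCR-positive, 8.76, 9.43 and 9.15 in BCR-negative, 5.89, 7.17 and 6.23 in treated and 8.98, 8.87 and 8.10 in BCR-independent cells. The 3 treated arrays lay below the 9 untreated ones with no overlap. The lowest untreated BCR-negative array (8.76) lay just above the highest BCR-positive one (8.70), and limma did not call that change (adjusted p = 0.999). How many of all genes tested show such gaps was not counted, so lack of overlap is a description for every gene here. Between groups lay 89.0% of its variance and between tumours 4.84%.

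Bbc3 (chr7:16308398-16318334), PUMA, which binds and blocks the survival proteins of the BCL2 family, read between 3.19 and 3.72 on the 12 arrays. Phlda3 (chr1:135766085-135769134), a repressor of AKT, read between 3.0 and 3.54. Both were near the array medians, and their group means spanned 0.16 and 0.22. For Bbc3 the 3 untreated BCR-negative arrays (3.40 to 3.72) lay just above the 3 treated ones (3.33 to 3.39), a difference that limma did not call (adjusted p = 0.481).

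The group order of means was the same for Trp53inp1, Gadd45a and Bbc3, with BCR-negative cells highest, then BCR-independent, BCR-positive and treated cells. The step from BCR-independent to BCR-positive cells was below its SE in each, at 0.044 (SE 0.26), 0.046 (SE 0.24) and 0.022 (SE 0.099). Sesn2 and Phlda3 shared another order, with treated cells highest, then BCR-independent, BCR-positive and BCR-negative cells. No step between neighbouring groups in the order of any of the 10 genes was called, except the one of 2.18 between BCR-positive and treated cells in Trp53inp1. Within tumours, 3 of the genes that read higher in treated cells went together over the 12 arrays. After each tumour's mean was removed, Pearson's r was 0.785 for Cdkn1a with Sesn2, 0.775 for Ccng1 with Sesn2 and 0.726 for Ccng1 with Cdkn1a. Other pairs went in opposite directions, the most so Gadd45a with Phlda3 (-0.807), Zmat3 with Plk2 (-0.795) and Cdkn1a with Bbc3 (-0.748). These are descriptions, since the arrays share tumours and groups and the pairs were picked as the highest and the lowest.

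The first comparison asked what inhibition of GSK3 changes in cells without the receptor. With CHIR99021, Trp53inp1 fell from 9.11 ± 0.34 to 6.43 ± 0.66 (SD, n = 3). The change was -2.68 (SE 0.26, 95% interval -3.27 to -2.10, adjusted p = 0.00439), or 6.43-fold. It was lower in 3 of 3 tumours, by -2.87, -2.26 and -2.92. It was the 1 of the 10 genes called, where 248 of 12961 genes (1.91%) were called. The call was lost without tumour 2646 (-2.90, adjusted p = 0.114) and without tumour 2676 (-2.57, adjusted p = 0.0797).

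The other 9 genes did not pass. The kinase Plk2 differed by -1.55 (SE 0.47, adjusted p = 0.134) and was lower in 3 of 3 tumours, by -1.55, -1.24 and -1.85. For the repair gene Gadd45a the difference was -0.89 (SE 0.24, adjusted p = 0.101), at -0.61, -1.19 and -0.85. Both of these were larger than the spread between the tumours' differences, yet short of the threshold over all genes. Their SEs pool the residual spread of all 4 groups, not only of the 2 compared.

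On the higher side, the arrest gene Cdkn1a differed by 1.59 (SE 0.58, adjusted p = 0.206), made of 2.20, 2.54 and 0.05 in the 3 tumours. Without tumour 2676 its difference was 2.37 (adjusted p = 0.0887). Ccng1 differed by 0.62 (SE 0.24, adjusted p = 0.232) and Sesn2 by 0.55 (SE 0.17, adjusted p = 0.132, at 0.68, 0.75 and 0.22). So arrest and stress genes of this set stood on both sides of 0, and the differences of Zmat3 (0.37), Phlda3 (0.22), Mdm2 (0.05) and Bbc3 (-0.16) had 95% intervals that included 0.

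**Figure D2:**
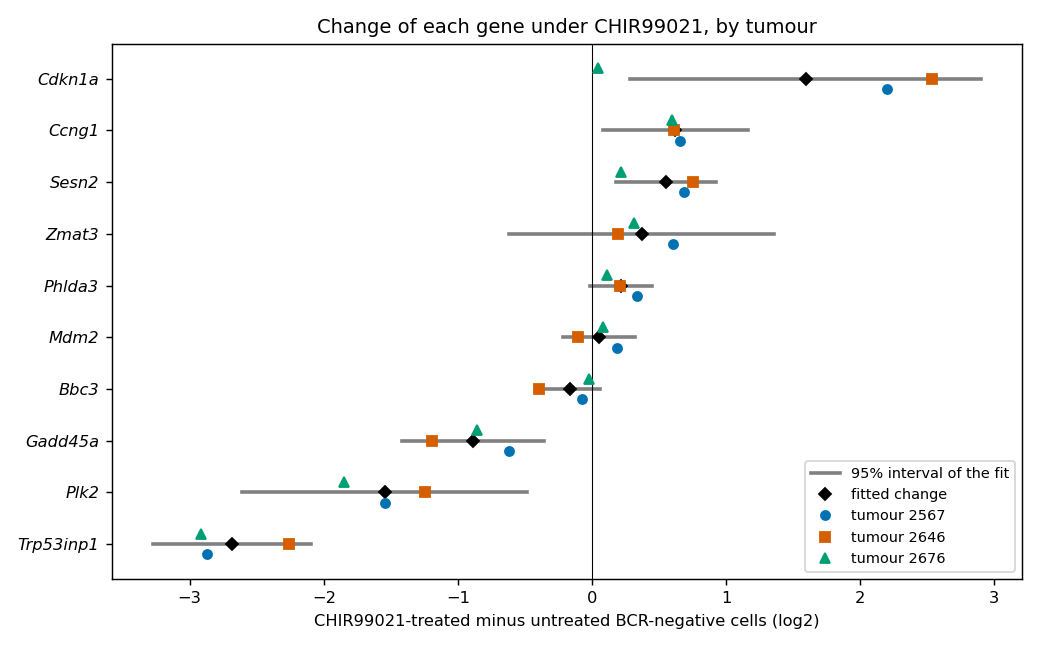
Difference between CHIR99021-treated and untreated BCR-negative cells (log2) for each of the 10 genes, as the fitted value (diamond) with its 95% interval (bar) and the difference within each tumour (coloured symbols). Trp53inp1 lies near -2.7 in the fit with all tumours beyond -2.2, and Cdkn1a has 2 tumours above 2 and tumour 2676 at 0.05.

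As a group, 6 of the 10 genes were higher and 4 lower, with a median of 0.14 where the median of all genes tested was 0.03. The median size of the difference was 0.59 against 0.12 over all genes. At an unadjusted p under 0.05 stood 6 of the 10 and 16.6% of all genes, and 9 of the 10 had the same sign in the 3 tumours, as 41.4% of all genes did. Such shares carry no test, here or below, since the genes were chosen with earlier results of these data known. The number called depended on the fit. With array weights 5 of the 10 were called (Gadd45a, Plk2, Sesn2 and Ccng1 besides Trp53inp1), where 1635 genes were called. With only the 2 groups compared 3 were called (Plk2 and Ccng1 besides Trp53inp1), among 109 genes.

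B cell marker genes moved beside these differences. Their mean level was 7.35 to 7.71 on the untreated BCR-negative arrays and 6.89 to 7.30 on the treated ones. Of 6 marker genes tested, 5 were lower in treated cells, with a median of -0.44 and 0 called, and their part in the result was not tested. Treatment and culture cannot be told apart, and the untreated arrays of tumours 2646 and 2676 carry a title mark, (2), that the labels do not explain. With that mark as a term Trp53inp1 changed by -2.53 (adjusted p = 0.0497), while Cdkn1a differed by 2.44 (adjusted p = 0.216).

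BCR-negative and BCR-positive cells were compared for what loss of the receptor does. None of the 10 genes was called, where 1 of 12961 genes (0.00772%) was, and 0 of the 10 had an unadjusted p under 0.05 in limma (413 genes, 3.19%). The largest differences were those of Cdkn1a (-0.58, SE 0.58) and Zmat3 (0.58, SE 0.44). Trp53inp1 was higher in 3 of 3 tumours, by 0.31, 0.73 and 0.48 (fitted 0.51, SE 0.26, adjusted p = 0.999), and Gadd45a differed by 0.33 (SE 0.24). Among the 10, 4 were higher and 6 lower, with a median of -0.08 (all genes -0.00093), and 3 had the same sign in the 3 tumours (24.4% of all genes).

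BCR-independent cells were compared with BCR-negative cells for what distinguishes clones that persist without the receptor. None of the 10 was called, and 1 of 12961 genes (0.00772%) was. In limma 2 of the 10 had an unadjusted p under 0.05 (776 genes, 5.99%), Mdm2 and Plk2. Mdm2 read lower in 3 of 3 tumours, by -0.32, -0.52 and -0.25 (fitted -0.36, SE 0.12, adjusted p = 0.796). Plk2 was lower in tumours 2567 and 2676 (-2.62 and -1.80) and higher in 2646 (0.25), with a fitted -1.39 (SE 0.47, adjusted p = 0.799). For Trp53inp1 the tumours gave 0.22, -0.56 and -1.05. Without tumour 2567 the Plk2 difference was -0.78 and without tumour 2646 it was -2.21.

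Against BCR-positive cells, BCR-independent cells had the same 2 genes at an unadjusted p under 0.05. Mdm2 differed by -0.48 (SE 0.12, adjusted p = 0.304; -0.46, -0.29 and -0.69 in the tumours) and Plk2 by -1.48 (SE 0.47, adjusted p = 0.376; -2.95, -0.19 and -1.31). None of the 10 was called, where 11 genes (0.0849%) were, and limma gave 1246 genes (9.61%) an unadjusted p under 0.05. The BCR-independent arrays are shared with the comparison above. The other 8 genes differed by -0.51 to 0.67. The BCR-independent cells measured came from cultures of their own, so culture and cell state cannot be told apart here.

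Treated BCR-negative cells were also set against BCR-positive and BCR-independent cells, with the same treated arrays. Trp53inp1 was again the 1 gene called of the 10 in each, where 104 genes (0.802%) and 21 genes (0.162%) were called. It changed by -2.18 (SE 0.26, adjusted p = 0.0143) against BCR-positive cells, with -2.56, -1.53 and -2.44 in the tumours. Against BCR-independent cells it changed by -2.22 (SE 0.26, adjusted p = 0.0222), with -3.09, -1.71 and -1.86. Both calls were lost without any 1 tumour, with adjusted p of 0.0553, 0.157 and 0.110 against BCR-positive cells and 0.175, 0.217 and 0.107 against BCR-independent cells (without 2567, 2646 and 2676). Leaving out the tumour as a block ended both as well (adjusted p = 0.0756 and 0.0727) as did comparing only the 2 groups (adjusted p = 0.134 and 0.234), and the title mark as a term ended the first (-2.03, adjusted p = 0.108). The 6 B cell markers had medians of -0.45 and -0.43 in these comparisons, and their part in them was not tested.

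Of the 10 genes, 3 had an unadjusted p under 0.05 against BCR-positive cells (15.6% of all genes) and 5 against BCR-independent cells (12.3%). Against BCR-positive cells, Plk2 was lower in 3 of 3 tumours (-1.64, SE 0.47, adjusted p = 0.140) and Gadd45a likewise (-0.56, SE 0.24, adjusted p = 0.298). Higher in 3 of 3 tumours were Zmat3 (0.95, SE 0.44, adjusted p = 0.340), Ccng1 (0.44, SE 0.24, adjusted p = 0.429) and Phlda3 (0.14, SE 0.10, adjusted p = 0.589). Cdkn1a differed by 1.01 (SE 0.58, adjusted p = 0.453), at 2.14, 2.20 and -1.30 in the tumours. Against BCR-independent cells Mdm2 read higher in 3 of 3 tumours (0.42, SE 0.12, adjusted p = 0.215). Ccng1 differed there by 0.64 (SE 0.24, adjusted p = 0.337), Cdkn1a by 1.52 (SE 0.58, adjusted p = 0.343) and Gadd45a by -0.60 (SE 0.24, adjusted p = 0.352). For Plk2 the tumours gave 1.07, -1.49 and -0.04, of opposite signs, with a fitted -0.16 (SE 0.47) that was 0.51 without tumour 2646.

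**Figure D3:**
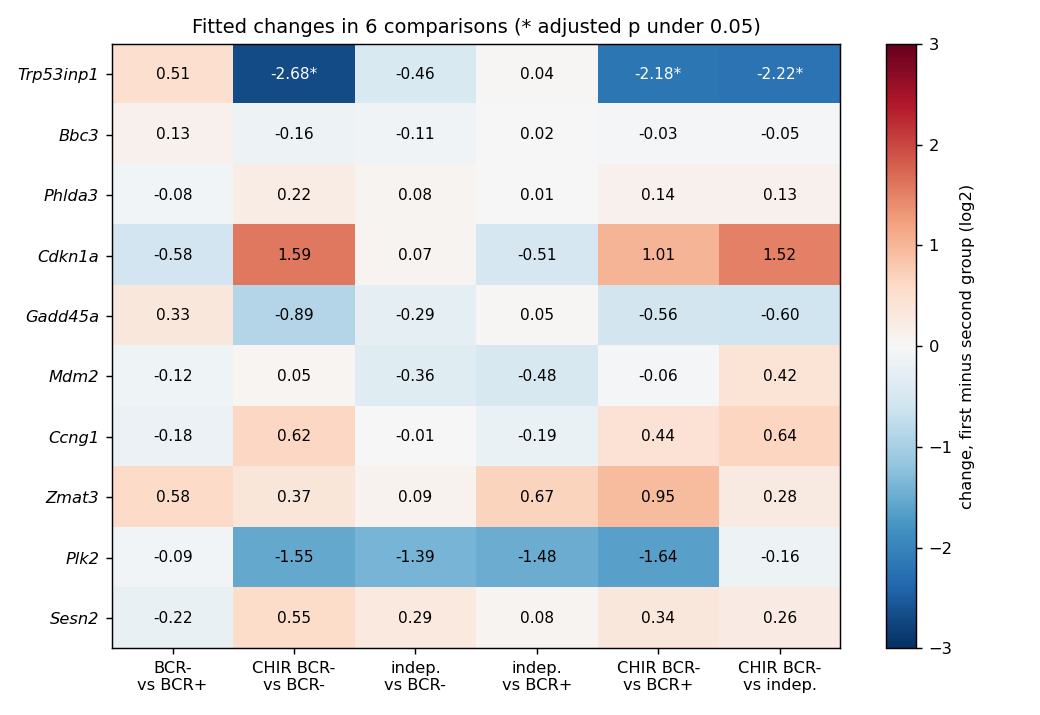
Fitted log2 differences of the 10 genes in the 6 comparisons of groups, first group minus second, with blue for lower and red for higher and a star at an adjusted p under 0.05. The 3 stars are all on Trp53inp1, in the columns that hold treated cells, and those columns share the treated arrays.

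Other genes were taken from 5 lists of known regulators and targets. These were p53 regulators, other p53 targets for arrest and repair, other p53 targets for death, ATF4 targets and FOXO targets. Of 13 p53 regulators tested (of 15), 6 were higher and 7 lower in treated than in untreated BCR-negative cells, with 0 called and a median of -0.03. The smallest p-values there were those of Cop1, a ubiquitin ligase for p53 (-0.41, adjusted p = 0.267), and the DNA damage kinase Atr (-0.40, adjusted p = 0.170). Of 13 other p53 targets for arrest and repair (of 15), 3 were higher and 10 lower, 1 of them called, with a median of -0.19. Of 10 other p53 targets for death (of 15), 7 were higher and 3 lower with 0 called and a median of 0.12. All genes tested had a median of 0.03.

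The called gene was Btg2, an antiproliferative p53 target. It read 7.11, 7.88 and 7.63 in untreated and 6.17, 6.88 and 6.33 in treated BCR-negative cells, with no overlap, and fell by 1.08 (SE 0.14, adjusted p = 0.0194). It also changed by -1.06 (SE 0.14, adjusted p = 0.0284) against BCR-independent cells. The first call was lost without each tumour (adjusted p of 0.0571, 0.248 and 0.143 without 2567, 2646 and 2676), when the block was left out (0.173) and under the title mark (0.114). The second was lost without each tumour, with no block (0.280) and with only 2 groups (0.234). Among the death targets, Bnip3l, a mitochondrial protein that acts in mitophagy, differed by -1.15 (adjusted p = 0.0825) and Pmaip1, the BH3-only protein NOXA, by 0.44 (adjusted p = 0.388). Pmaip1 was dim, with means of 3.69 in untreated and 4.13 in treated BCR-negative cells. Over the 4 groups it ranged from 3.24 to 4.80 in tumour 2567, but from 3.37 to 3.69 in 2646 and 3.68 to 3.89 in 2676.

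The 2 lists of other stress factors that share targets with p53 gave these counts. Of 15 FOXO targets tested (of 15), 5 were higher and 10 lower in treated BCR-negative cells, with 1 called and a median of -0.34. That gene was Ccng2, the cyclin G2 relative of Ccng1, which read 4.80, 6.28 and 6.37 untreated and 3.83, 3.80 and 3.80 treated. The treated readings stood not far above the array medians (3.32 to 3.44), among dim signals whose differences are compressed. Ccng2 fell by 2.01 (SE 0.32, adjusted p = 0.0278), where Ccng1 differed by 0.62, and by 1.89 (adjusted p = 0.0376) against BCR-positive cells. The Ccng2 calls were lost without tumours 2646 and 2676, without the block (adjusted p = 0.203 and 0.311), with only 2 groups (0.0571 and 0.150) and with the title mark (-1.22 and -1.10). Of 12 ATF4 targets tested (of 15), 9 were higher and 3 lower, with 0 called and a median of 0.33. The stress factors Nupr1 (0.43, adjusted p = 0.0662) and Atf3 (1.13, adjusted p = 0.121) had the smallest p-values there. Nupr1 was dim, with means of 3.15 in untreated and 3.57 in treated BCR-negative cells. Atf3 was higher by 1.45 and 1.86 in tumours 2567 and 2646 and by 0.075 in 2676.

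**Figure D4:**
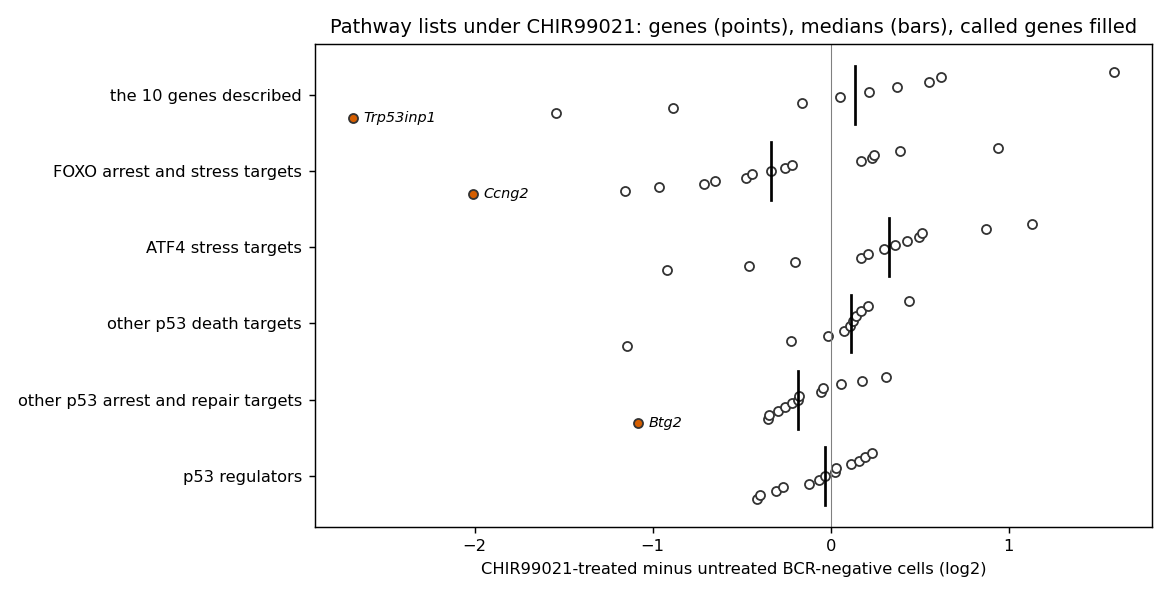
Fitted log2 difference between CHIR99021-treated and untreated BCR-negative cells for each tested gene of the 10 described genes and of 5 pathway lists (points), with the median of each as a bar and called genes filled. The medians run from -0.34 for FOXO targets to 0.33 for ATF4 targets, and the filled points are Trp53inp1, Ccng2 and Btg2, each at or below -1.08.

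**Figure D5:**
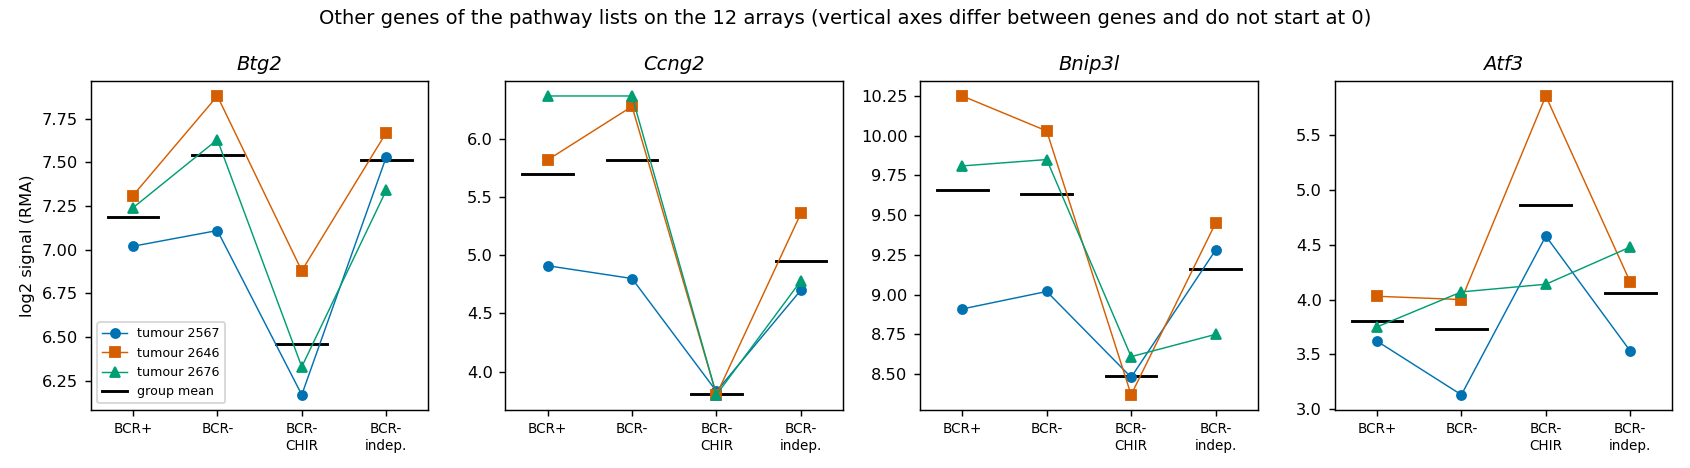
Log2 signal (RMA) of Btg2, Ccng2, Bnip3l and Atf3 on the 12 arrays, by group, with 1 symbol and line per tumour and a bar for each group mean (n = 3). Vertical axes differ and do not start at 0. Ccng2 reads 3.80 to 3.83 on the 3 treated arrays, and Atf3 is highest in the treated arrays of tumours 2567 and 2646 but not of 2676.

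In the other comparisons no regulator, death target or ATF4 target was called. At loss of the receptor, 10 of 13 arrest and repair targets and 12 of 15 FOXO targets were higher, with medians of 0.13 and 0.14. In the same comparison 9 of 13 regulators, 7 of 10 death targets and 7 of 12 ATF4 targets were lower, with medians of -0.03, -0.05 and -0.01, and 0 genes of the 5 lists were called. Between BCR-independent and BCR-negative cells, the medians of the 5 lists lay between -0.06 and 0.15 with 0 called.

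The 3 genes whose pattern was most like that of Trp53inp1, by Pearson's r over the 12 arrays after removal of each tumour's mean, were H2az2, a variant histone H2A.Z (0.975), Tax1bp1, a ubiquitin-binding autophagy receptor (0.964), and Btg2 (0.961). H2az2 read 7.33 in BCR-positive, 7.48 in BCR-negative, 5.53 in treated and 7.09 in BCR-independent cells as group means, and Tax1bp1 7.73, 7.90, 6.98 and 7.72. These values were selected for likeness and carry no test.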

How the data were processed

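Gene expression was measured in 12 samples, 1 whole-transcript Affymetrix array each. The deposited values are log2 signals. Per the submitters' processing notes the authors used RMA and Affymetrix Power Tools, with no version given in the sources used here. RMA corrects background, normalizes arrays to a common distribution and summarises probes, so differences between dim probe sets are compressed. Depth does not apply to arrays, and their number limits the precision. The table had 0 columns without a sample. Of 35556 probe sets, 21218 had 1 gene symbol, 1881 several and 12457 none. Symbols were updated through a RefSeq table (GRCm38.p6), which also gave gene coordinates and promoters. Kept were probe sets that exceeded the 40th percentile of the array on 3 or more arrays, and the probe set with the highest mean stood for a gene.

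In R 4.3.3, limma 3.58.1 fitted group with tumour as a block over all 12 arrays (6 residual and 3.41 prior degrees of freedom), and the script was tested on simulated data. Each tumour occurs once in every group, by its number in the titles. After the group means were removed, arrays of 1 tumour had correlations from 0.2842 to 0.7919, against -0.7159 to 0.165 across tumours. Removing the group means itself pushes the correlations across tumours down, so the distance between these ranges is in part set by the method. Treated and BCR-independent cells came from cultures of their own, and whether the untreated cells with and without the receptor shared a culture is not stated in the labels. With 1 array per tumour and group, a p-value here reflects how differences between groups vary from tumour to tumour. That spread is pooled over all groups and moderated over all genes, and the level of each tumour is removed by the block.

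The genes and lists were chosen with earlier results of these data known. Named are the 10 genes, of the other lists the genes called in any comparison or else the 2 with the smallest p between treated and untreated BCR-negative cells, the 3 genes most like each called gene of the 10, and Trp53 and Ighv1-72 as checks. The alternatives were no tumour block, no filter or the 60th percentile, quantile normalization or cyclic loess of the values, robust eBayes with an intensity trend, array weights, a fit of only the 2 groups, the mean over all probe sets of a gene, a threshold of 1.5-fold besides the p, the title mark as a term, and each tumour left out.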

Additional observations from a re-analysis of the deposited data

How the results depend on the processing

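Without the replicate block for tumour, the number of the 10 genes called stayed at 1 for treated against untreated BCR-negative cells (Trp53inp1, adjusted p = 0.0236), and went to 0 for treated cells against BCR-positive and against BCR-independent cells. It was also 0 in both with only the 2 groups compared and 0 when each tumour was left out in turn, and 0 against BCR-positive cells with the title mark as a term. For treated against untreated BCR-negative cells it was 5 with array weights, 3 with only the 2 groups compared and 0 to 1 when each tumour was left out. The fit without a tumour rests on 2 arrays per group. The other 3 comparisons had 0 of the 10 called under every alternative run. Over all genes, treated against untreated BCR-negative cells gave 248 calls, 12 without the block, 1635 with array weights, 109 with only the 2 groups, 32 with the title mark, 163 with a 1.5-fold threshold, and 1 to 17 without a tumour. Treated against BCR-positive cells gave 104 calls, 7 without the block, 168 with array weights, 183 after cyclic loess, 0 with only the 2 groups, 8 with the title mark and 4 to 19 without a tumour. Treated against BCR-independent cells gave 21, 5 without the block, 39 with array weights, 37 after cyclic loess, 33 after quantile normalization, 1 with only the 2 groups, 33 with the title mark and 0 to 12 without a tumour. BCR-independent against BCR-positive cells gave 11, 4 without the block, 3 with array weights, 1 with only the 2 groups and 1 to 4 without a tumour. The other comparisons gave 1 call each and 0 to 3 under the alternatives. The differences of the 10 genes that changed sign, none of them called, were these. For BCR-negative against BCR-positive cells, leaving out each tumour gave -0.39 to 0.083 for Plk2 and -0.29 to 0.043 for Mdm2. For treated against untreated BCR-negative cells, leaving out each tumour gave -0.0104 to 0.13 for Mdm2. For BCR-independent against BCR-negative cells, leaving out each tumour gave -0.39 to 0.93 for Zmat3, -0.21 to 0.28 for Cdkn1a, -0.0319 to 0.16 for Phlda3 and -0.34 to 0.35 for Ccng1. There, with array weights, Zmat3 was -0.0872 and Cdkn1a was -0.16. For BCR-independent against BCR-positive cells, leaving out each tumour gave -0.20 to 0.35 for Trp53inp1, -0.0806 to 0.14 for Phlda3, -0.22 to 0.47 for Gadd45a, -0.0103 to 0.18 for Sesn2 and -0.0376 to 0.0929 for Bbc3. There, with array weights, Trp53inp1 was -0.0329 and Phlda3 was -0.00472; after cyclic loess, Bbc3 was -0.0185 and Phlda3 was -0.0273; after quantile normalization, Bbc3 was -0.0205 and Phlda3 was -0.0143; with the title mark, Cdkn1a was 0.34, Gadd45a was -0.24 and Bbc3 was -0.00462. For treated against BCR-positive cells, leaving out each tumour gave -0.14 to 0.0242 for Bbc3 and -0.16 to 0.0821 for Mdm2. There, with the title mark, Mdm2 was 0.0124. For treated against BCR-independent cells, leaving out each tumour gave -0.47 to 0.66 for Zmat3, -0.77 to 0.51 for Plk2 and -0.10 to 0.00847 for Bbc3. The cause was not tested.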
